A study of Marchantia polymorpha with 12 samples.

Results

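Transcripts of 3 genes of specialised metabolism, MpTPS6, MpCYP716-like24 and MpCYP829-like16, were followed in thalli of the liverwort Marchantia polymorpha. They were taken by identifier (Mp3g13150, Mp7g03000 and Mp2g20490) from the 19441 genes of the count tables. They were selected on their own measured values, a higher level in the double mutants than in the controls of both sets, so those contrasts are described for them and not tested. Thalli, the flat haploid plant body, were 14 days old, and every one of the 12 libraries carried the Mpknox2-1 mutation. In set 1 the double mutant Mpknox2-1 Mpez1-1 was set against Mpknox2-1, and in set 2 the double mutant Mpknox2-1 Mpez1-2 was set against its own Mpknox2-1 controls. Each of the 4 groups held 3 libraries, labelled as biological replicates. Plants without the Mpknox2-1 mutation were not analysed here. Each set holds a single Mpez1 allele, so allele, set and any difference in plant background cannot be told apart.

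Terpene synthases turn prenyl diphosphates into the carbon skeletons of terpenes, and cytochrome P450 enzymes are haem oxygenases that often oxidise such skeletons further. Liverworts are known for the sesquiterpenes that they store in the oil bodies of single scattered cells. MpTPS6 is named for the plant type of terpene synthase, and MpCYP716-like24 for a P450 family that oxidises triterpenes in flowering plants. MpCYP829-like16 is named for the P450 family CYP829, for which no role is given here. E(z) proteins are the catalytic subunits of the Polycomb complex PRC2, which methylates histone H3 at genes that are kept silent.

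Each library held 7019900 to 12098548 gene counts. The mutated gene MpE(z)1 (MpCXC3, Mp5g18040) kept transcripts in every double mutant library. Its level was 14.4 ± 1.96 CPM in Mpez1-1 double mutants and 30.2 ± 4.27 CPM in their controls (mean and SD of 3 libraries), lower by -1.06 on the log2 scale (edgeR adjusted p = 0.000607). CPM are counts scaled by the TMM library size. It was 19.8 ± 1.56 CPM in Mpez1-2 double mutants and 35.0 ± 2.81 CPM in their controls, lower by -0.78 (edgeR adjusted p = 3.36e-05).

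MpTPS6 was silent at this depth in all controls and present in all double mutants. It had 28, 49 and 15 counts in the Mpez1-1 double mutants, against 0 counts in each of the set 1 controls. In set 2 it had 74, 67 and 84 counts in the Mpez1-2 double mutants, against 0 counts in each control. No library of a double mutant overlapped a control in either set, and the Mpez1-1 double mutants were more spread than the Mpez1-2 ones. On the CPM scale these were 3.79, 5.82 and 2.32 in the Mpez1-1 double mutants and 8.27, 6.63 and 7.97 in the Mpez1-2 double mutants. Set against a floor of 3 counts summed over the 3 control libraries, MpTPS6 was at least 41.6-fold higher in set 1 and at least 83.3-fold higher in set 2. Such floors cover counting error only, and transcripts below them would not have been detectable.

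MpCYP716-like24 had the same silent controls and a higher count. Its counts were 102, 140 and 131 in the Mpez1-1 double mutants, against 0 in each set 1 control. In set 2 the Mpez1-2 double mutants had 118, 109 and 116 counts, against 0 in each control. The double mutant libraries were close to each other in both sets. Their levels were 16.9 ± 3.21 CPM with Mpez1-1 and 11.7 ± 1.33 CPM with Mpez1-2 (SD, n = 3 each). Against the same floor this was at least 169-fold higher in set 1 and at least 127-fold higher in set 2.

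MpCYP829-like16 differed from the other two in being transcribed in the controls. It had 709, 834 and 626 counts in the Mpez1-1 double mutants, against 49, 47 and 40 in the set 1 controls. In set 2 it had 370, 370 and 591 counts in the Mpez1-2 double mutants, against 121, 163 and 197 in the controls. The groups did not overlap in either set, but the distance between them was much smaller in set 2. In CPM it stood at 97.2 ± 1.55 in the Mpez1-1 double mutants and 4.52 ± 0.297 in their controls, a ratio of 21.5 (log2 fold change 4.43). The Mpez1-2 double mutants were at 44.7 ± 10.1 CPM and their controls at 14.7 ± 3.58 CPM, a ratio of 3.05 (log2 fold change 1.66). MpCYP829-like16 was thus both lower in the double mutants and higher in the controls of set 2 than in those of set 1.

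**Figure D1:**
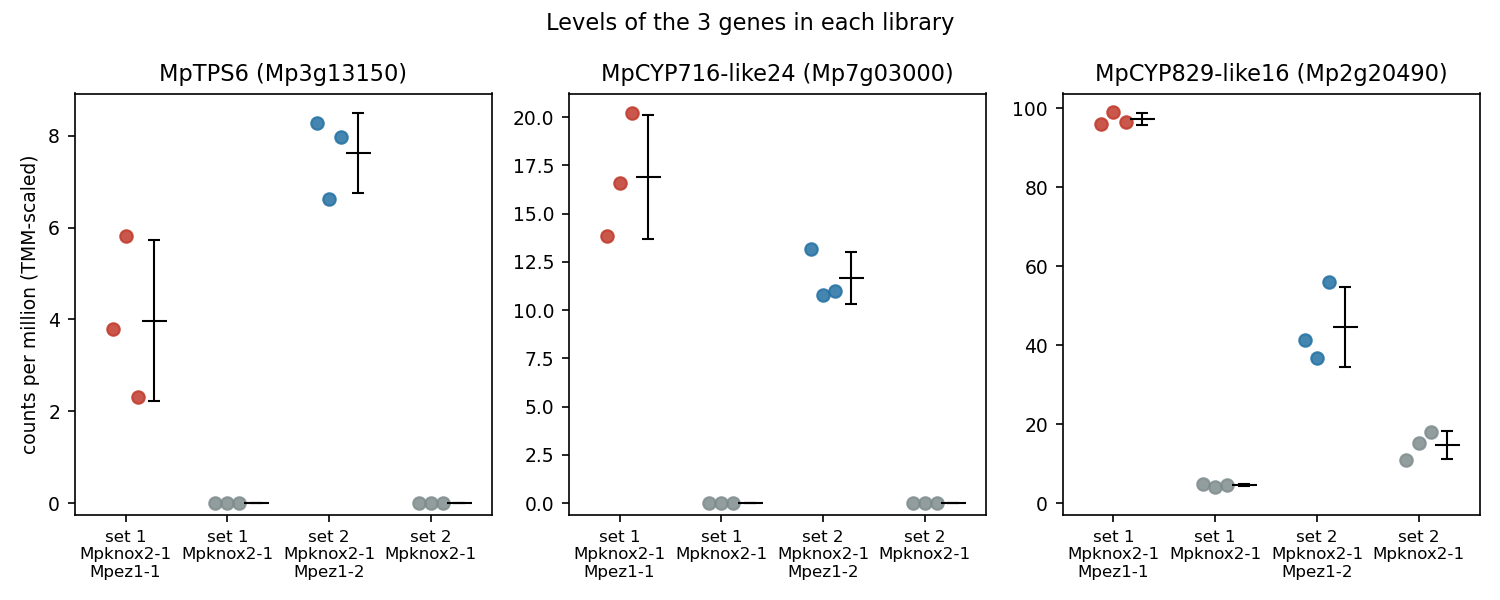
Level in CPM (TMM-scaled, linear axis) of the 3 genes in each of 12 libraries; points are libraries and black marks are the mean ± SD of 3. MpTPS6 and MpCYP716-like24 lie at 0 in all 6 controls, whereas MpCYP829-like16 lies at 4.52 CPM on average in set 1 controls and 14.7 CPM in set 2 controls.

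Silent controls with clear counts in every double mutant were rare in the whole table. Of 19441 genes, 51 (0.262%) had 0 counts in the 6 controls and at least 10 in each of the 6 double mutant libraries, MpTPS6 and MpCYP716-like24 among them. Taken set by set, the share was 0.504% in set 1 and 0.525% in set 2. Among the other 34 terpene synthase genes and the other 127 P450 genes recognised by symbol, 0 had this pattern. That depends on the cutoff of 10 counts. The terpene synthase genes MpMTPSL17, MpFTPSL7 and MpMTPSL24 also had 0 counts in every control and counts in every double mutant library, some under 10. Groups that did not overlap, with the double mutant higher, were common by comparison, at 31.1% of the 12633 genes tested in set 1 and 22.5% of the 12744 tested in set 2. These counts come from the contrast by which the 3 genes were chosen, and nothing further is read from them.

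The level in the 2 kinds of double mutant was not part of that choice and was tested. MpTPS6 was higher in Mpez1-2 than in Mpez1-1 double mutants, at 7.63 ± 0.872 and 3.98 ± 1.76 CPM, with a log2 difference of 0.92 (SE 0.30, edgeR adjusted p = 0.0235). All 3 Mpez1-2 libraries lay above all 3 Mpez1-1 libraries, as for 35.4% of 12869 genes tested. The call did not hold without Mpez1-2 replicate 1 (0.87, edgeR adjusted p = 0.0752) or without Mpez1-2 replicate 3 (0.89, edgeR adjusted p = 0.0713).

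The P450 genes differed the other way. MpCYP829-like16 was lower in Mpez1-2 than in Mpez1-1 double mutants by a log2 difference of -1.12 (SE 0.14, edgeR adjusted p = 0.000201). MpCYP716-like24 was lower by a smaller step, -0.53 (SE 0.17, edgeR adjusted p = 0.0238). That smaller call was lost without Mpez1-1 replicate 2 (-0.55, edgeR adjusted p = 0.0561), without Mpez1-2 replicate 2 (-0.48, edgeR adjusted p = 0.0873) and without Mpez1-2 replicate 3 (-0.48, edgeR adjusted p = 0.0845). The libraries of MpCYP716-like24 lay next to each other, at 10.8 to 13.2 CPM in Mpez1-2 and 13.8 to 20.2 CPM in Mpez1-1 double mutants; 33.8% of genes had such a gap downwards. Scaled by plain library size they overlapped, at 12.1 to 14.8 CPM in Mpez1-2 and 12.4 to 18.6 CPM in Mpez1-1 double mutants. Differences between the double mutants were frequent, with 30.5% of 12869 genes called higher and 30.3% called lower in Mpez1-2. An exact two-sided permutation test on the CPM of a single gene gave p = 0.1 for each of the 3 genes, the smallest value that 3 against 3 libraries allow.

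The controls of the 2 sets could be compared for MpCYP829-like16 only. They averaged 10.1 CPM higher in set 2 than in set 1, with 10.8, 15.3 and 17.9 CPM in set 2 controls and 4.78, 4.19 and 4.58 CPM in set 1 controls. The exact two-sided permutation test again gave p = 0.1, its smallest value.

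Reads on the opposite strand were few at all 3 genes. The second table of each library was read as that strand because it held 1.66% to 2.17% of all gene counts. At MpTPS6 it held 2 counts beside 92 in the first table of the Mpez1-1 double mutants, 2.13% (exact binomial 95% interval 0.259% to 7.48%), and 6 beside 225 in the Mpez1-2 double mutants, 2.60% (0.959% to 5.57%). At MpCYP716-like24 it held 0.267% (0.00677% to 1.48%) in Mpez1-1 and 0.580% (0.0703% to 2.08%) in Mpez1-2 double mutants. At MpCYP829-like16 it held 0.184% (0.0502% to 0.471%) in Mpez1-1 and 0.150% (0.0182% to 0.541%) in Mpez1-2 double mutants. The opposite strand had no more than 1 count in any control group at any of the 3 genes. For MpCYP829-like16 the controls had 0 counts, with upper limits of the same interval at 2.68% in set 1 and 0.764% in set 2. Nearly all counts of the 3 genes in double mutants were thus in the first table, and the intervals cover counting error only.

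Genes beside the 3 were examined as the 5 identifiers before and the 5 after each. Around MpTPS6 on chromosome 3, 9 of 10 neighbours were tested. In set 1, 1 rose and 1 fell, against 26.5% of all tested genes called higher and 24.1% called lower. In set 2, 1 rose and 2 fell, against 20.4% and 17.4%. The neighbours before and after it, Mp3g13140 and Mp3g13160, were transcribed in every group, with Mp3g13140 at 22.3 ± 2.93 CPM in Mpez1-1 double mutants and 24.5 ± 2.01 CPM in their controls. Mp3g13160 changed by 0.34 in set 1 (edgeR adjusted p = 0.0140) and by -0.29 in set 2 (edgeR adjusted p = 0.0174) on the log2 scale. The first call was lost without set 1 control replicate 1 or 3 (0.29 and 0.32), and the second without set 2 control replicate 1, Mpez1-2 replicate 1 or Mpez1-2 replicate 2 (-0.28 to -0.22). Mp3g13110 fell in both sets, by -0.83 in set 1 (edgeR adjusted p = 0.000577) and by -0.37 in set 2 (edgeR adjusted p = 0.0100), the second lost without set 2 control replicate 2 (-0.31) or Mpez1-2 replicate 1 (-0.27). Mp3g13190 rose in set 2, by 0.44 (edgeR adjusted p = 0.0184), a call lost without set 2 control replicate 2 or 3 or Mpez1-2 replicate 1 (0.36 to 0.37). MpTPS6 was the only one of these 11 genes with silent controls and at least 10 counts in each double mutant library.

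Around MpCYP716-like24 on chromosome 7, most of the tested neighbours rose. In set 1, 5 of its 10 neighbours were tested, and 4 rose and 1 fell. Over all genes tested in set 1, 26.5% were called higher and 24.1% lower. In set 2, 6 neighbours were tested, and 5 rose and 0 fell, against 20.4% and 17.4%. Among them, Mp7g02950 in both sets and Mp7g02960 in set 2 had only 4 or 5 control counts in all. They passed the filter through their double mutant counts and could only rise. The counts of risen neighbours are therefore a description only. MpCYP716Z1 (Mp7g03050), another P450 gene of the same family, was the fifth identifier after it. MpCYP716Z1 stood at 89.2 ± 30.7 CPM in Mpez1-1 double mutants and 4.82 ± 1.87 CPM in their controls (log2 fold change 4.23, SE 0.36, edgeR adjusted p = 0.000150). In set 2 it stood at 90.3 ± 4.06 CPM in Mpez1-2 double mutants and 17.2 ± 2.64 CPM in their controls (log2 fold change 2.44, SE 0.10, edgeR adjusted p = 3.10e-10). Like MpCYP829-like16 it had a higher level in set 2 controls than in set 1 controls. How reads shared by such related genes were counted is not given in the sources used here.

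Genes without a symbol on either side rose as well. Mp7g03010, the next identifier, stood at 38.6 ± 17.5 CPM in Mpez1-1 double mutants and 1.12 ± 0.495 CPM in their controls, and at 50.2 ± 9.94 CPM in Mpez1-2 double mutants and 3.47 ± 0.395 CPM in their controls. Its log2 fold changes were 5.05 in set 1 and 3.90 in set 2, and those of Mp7g03030 were 3.53 and 3.01. Mp7g02950 changed by 3.34 and 4.40 from controls with 4 and 5 counts in all. Mp7g02960 rose in set 2 (log2 fold change 3.91), and in set 1 its summed counts were 28 in the double mutants and 3 in the controls, a ratio of 12.6 (95% counting interval 3.91 to 65.0). Mp7g02990, the identifier before MpCYP716-like24, was at 0 counts in all controls, with 27 counts in the Mpez1-1 and 8 in the Mpez1-2 double mutants. Mp7g03020 had 42 counts in the Mpez1-1 double mutants and 0 in their controls, and 19 in the Mpez1-2 double mutants and 2 in their controls. Mp7g03040 was the exception, with a log2 fold change of -0.48 in set 1 (edgeR adjusted p = 0.0256) and 0.03 in set 2. Its call was lost with DESeq2 (-0.46) and without set 1 control replicate 2 (-0.41) or Mpez1-1 replicate 2 (-0.45). MpGST11, named for a glutathione S-transferase, had 0 counts in all 12 libraries.

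MpCYP829-like16 on chromosome 2 lay among identifiers of which 4 of 10 had 0 counts in all 12 libraries and 3 were tested in each set. MpUGT7, the identifier before it, named for the glycosyltransferases that attach sugars to small molecules, moved the other way. MpUGT7 stood at 10.6 ± 0.552 CPM in Mpez1-1 double mutants and 21.3 ± 3.34 CPM in their controls (log2 fold change -0.99, SE 0.15, edgeR adjusted p = 0.000844). In set 2 it stood at 17.9 ± 2.54 CPM in Mpez1-2 double mutants and 34.9 ± 9.63 CPM in their controls (log2 fold change -0.91, edgeR adjusted p = 0.0202). This set 2 call was lost without set 2 control replicate 2 or any single Mpez1-2 library (-0.97 to -0.80) and with the replicate block (-0.88, edgeR adjusted p = 0.0813). MpPOD17, a class III peroxidase gene, rose in set 2 (log2 fold change 2.91, SE 0.39, edgeR adjusted p = 4.95e-05) and had 29 counts in Mpez1-1 double mutants and 3 in their controls. Mp2g20520, the next identifier, had 20 counts in Mpez1-1 double mutants and 1 in their controls, and 25 in Mpez1-2 double mutants and 1 in their controls.

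The order of identifiers is not everywhere the order of genes in the reference table. In that order, chosen after seeing the data, the counts around MpTPS6 were the same. MpCYP716-like24 had 3 tested neighbours, Mp7g03010, Mp7g03030 and MpCYP716Z1, and all 3 rose in both sets. Of the 12261 genes tested in both sets, 13.5% did so. Around MpCYP829-like16, 7 neighbours were tested in set 1 and 5 fell, and 8 were tested in set 2, where 3 rose and 2 fell. Over all genes tested, 24.1% fell in set 1, and 20.4% rose and 17.4% fell in set 2. The fallen neighbours in set 1 were MpUGT7, Mp2g20430 (-0.86), Mp2g20590 (-1.03), Mp2g20600 (-2.17) and Mp2g20610 (-2.26). The last call was lost without set 1 control replicate 3 (-1.73) or Mpez1-1 replicate 2 (-1.91). In set 2, MpUGT7 and Mp2g20430 (-1.01) fell, and MpPOD17, Mp2g20610 (1.15) and Mp2g20460, which had 0 counts in its controls, rose. The Mp2g20430 call of set 2 was lost without any single set 2 control library or Mpez1-2 replicate 2 (-1.07 to -0.92), and the Mp2g20610 call of set 2 in the fit of all 12 libraries (1.10).

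**Figure D2:**
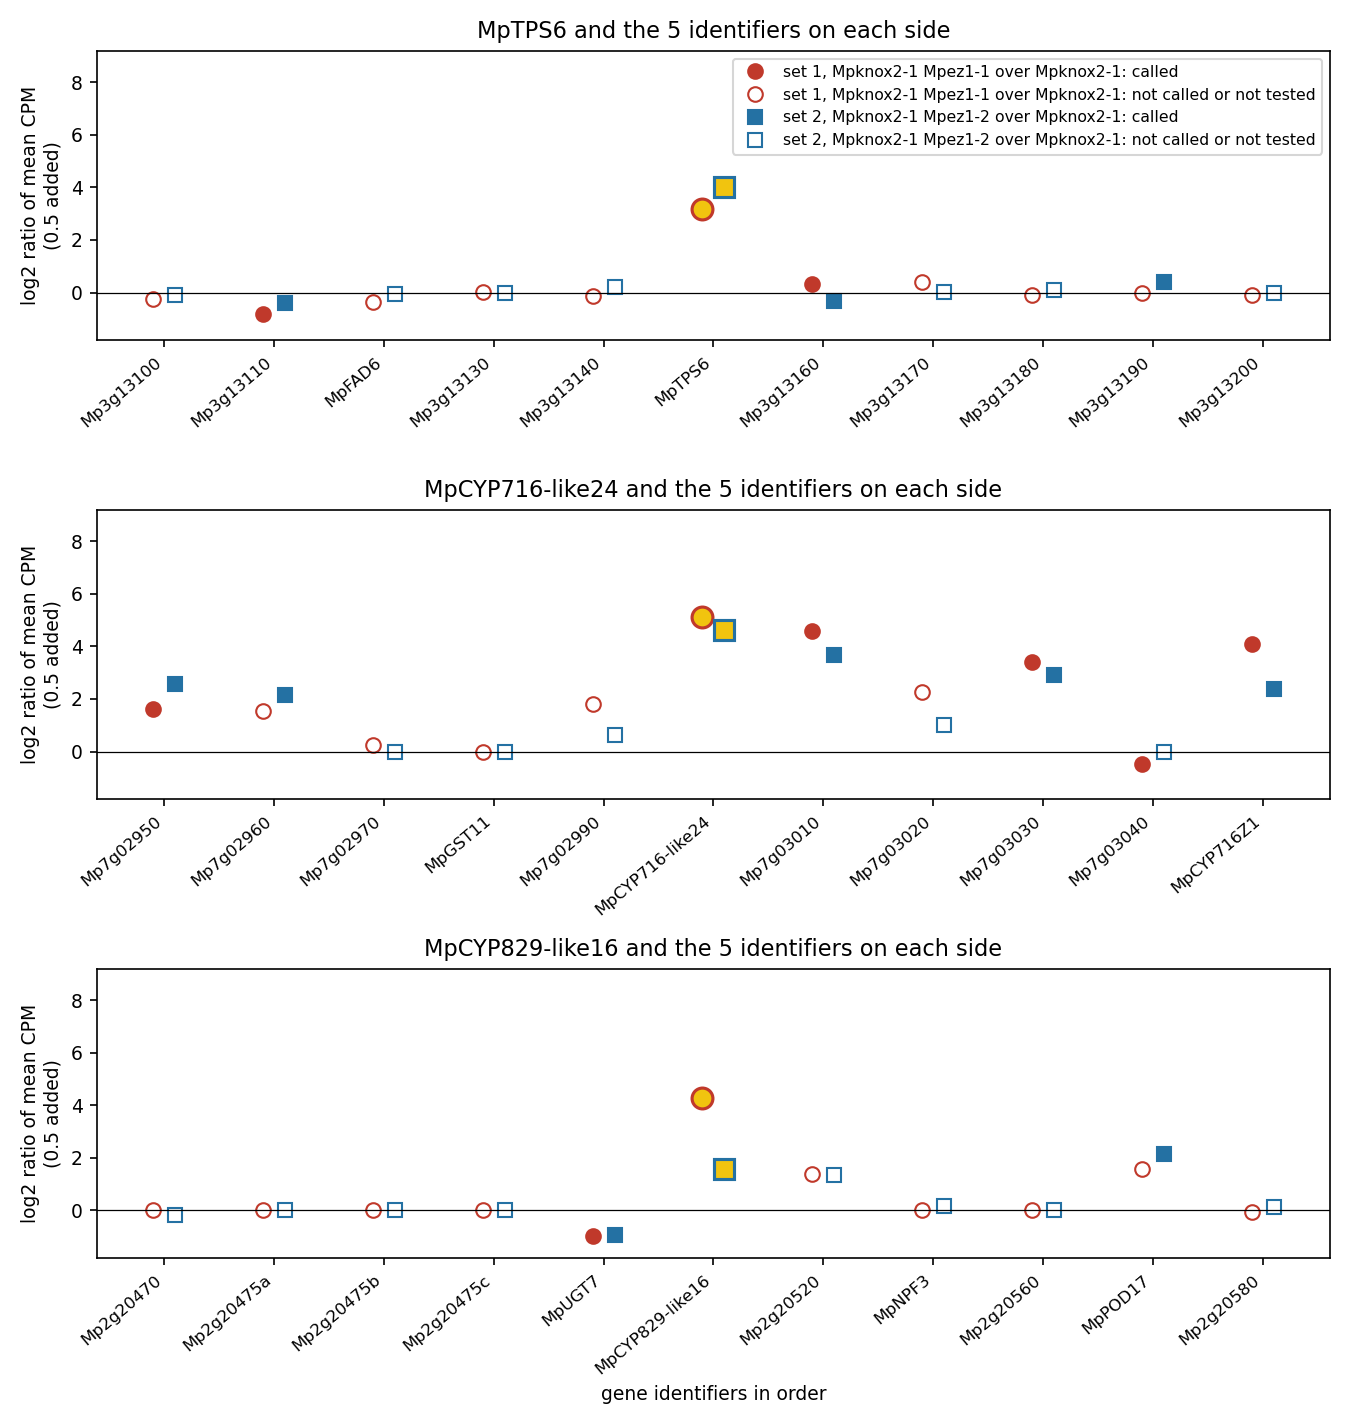
Log2 ratio of mean CPM (0.5 added to each mean, linear axis) for each of the 3 genes (yellow) and the 5 identifiers on each side in order; red circles are Mpknox2-1 Mpez1-1 over Mpknox2-1 and blue squares Mpknox2-1 Mpez1-2 over Mpknox2-1, filled where edgeR called the change. Several neighbours of MpCYP716-like24 lie well above 0. Those of MpTPS6 lie from -0.82 (Mp3g13110) to 0.40 (Mp3g13170), both in set 1. MpUGT7 beside MpCYP829-like16 lies at -0.97 in set 1 and -0.94 in set 2.

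Other genes of the same families were counted to place the 3 genes, which were left out of every count. Among 34 other terpene synthase genes, 20 were tested in set 1, of which 15 rose and 2 fell. In set 2, 15 were tested, of which 9 rose and 1 fell, and the 9 had all risen in set 1. Over all genes tested, 26.5% rose and 24.1% fell in set 1, and 20.4% and 17.4% in set 2. Genes silent in controls could be tested only through their double mutant counts and could then only rise, as MpFTPSL7 and MpMTPSL17 in set 1. With untested genes counted in, 15 of 34 rose in set 1 and 9 of 34 in set 2. The same counts were 3350 and 2602 of all 19441 genes. Different genes, 20 in set 1 and 15 in set 2, enter the medians. The median log2 fold change of the terpene synthase genes was 2.12 in set 1 and 1.07 in set 2. Over all genes tested it was -0.02 and -0.00. MpMTPSL23, of the microbial type of terpene synthase found in liverworts, had the largest fitted changes. It averaged 26.8 ± 18.1 CPM in Mpez1-1 double mutants against 2 counts in all in their controls, and 4.91 ± 1.09 CPM in Mpez1-2 double mutants against 2 counts in all. The ratios were 389 (95% counting interval 107 to 3219) and 81.7 (22.2 to 681). MpFTPSL3 stood at 101 ± 27.2 CPM in Mpez1-1 double mutants and 2.50 ± 0.715 CPM in their controls, and at 25.4 ± 7.68 CPM in Mpez1-2 double mutants and 6.59 ± 1.71 CPM in their controls. MpMTPSL19 (log2 fold changes 3.65 and 2.31), MpMTPSL5 (3.15 and 2.50) and MpFTPSL8 (2.69 and 2.67) rose in both sets as well. Like MpTPS6, MpFTPSL7 and MpMTPSL17 had 0 counts in every control, and they were at least 45.6-fold and 30.7-fold higher in set 1. In set 2 the bounds were 5.56-fold for MpFTPSL7 and 16.7-fold for MpMTPSL17. MpFTPSL7 was lower in Mpez1-2 than in Mpez1-1 double mutants, at 0.490 ± 0.399 and 4.52 ± 0.759 CPM (log2 difference -3.13, edgeR adjusted p = 0.000327).

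The terpene synthase genes that fell were named after their values were seen. MpTPS5, of the same plant type as MpTPS6, fell in set 1 (log2 fold change -2.11, SE 0.36, edgeR adjusted p = 0.00175) and was at -0.29 in set 2. MpMTPSL1 fell in set 1 (-0.53, edgeR adjusted p = 0.00908). MpFTPSL1 rose in set 1 (0.87, edgeR adjusted p = 0.0169) and fell in set 2 (-1.01, edgeR adjusted p = 0.0174). Its set 1 call was lost without control replicate 2 or 3 or Mpez1-1 replicate 2 (0.72 to 0.88), and its set 2 call without control replicate 3 or Mpez1-2 replicate 2 or 3 (-0.91 to -0.85).

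The CYP716 family held 7 other genes. In set 1, 6 were tested and 2 rose, MpCYP716-like21 (log2 fold change 6.06) and MpCYP716Z1, a share of 33.3% that lay near the 26.5% of all genes tested. In set 2, 6 were tested and 5 rose, MpCYP716AA1 (from 2 counts in the controls), MpCYP716-like23 (3.63), MpCYP716-like21 (2.67), MpCYP716Z1 (2.44) and, named after its values were seen, MpCYP716 (2.05), against 20.4% of all genes tested. The median log2 fold change was 1.63 in set 1 and 2.56 in set 2.

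The CYP829 family was the larger one, with 46 other genes. In set 1, 24 of 32 tested genes rose and 4 fell, and in set 2, 21 of 28 rose and 2 fell. Over all genes tested, 26.5% rose and 24.1% fell in set 1, and 20.4% and 17.4% in set 2. Of the CYP829 genes, 20 rose in both sets, as did 13.5% of the 12261 genes tested in both. In each set, 1 of the tested genes had 0 counts in its controls and could only rise. With untested genes counted in, 24 of 46 rose in set 1 and 21 of 46 in set 2. The same counts were 3350 and 2602 of all 19441 genes. The median log2 fold change of the family was 2.19 in set 1 and 1.23 in set 2, over 32 and 28 tested genes. MpCYP829-like43 was at 149 ± 13.1 CPM in Mpez1-1 double mutants and 0.174 ± 0.154 CPM in their controls (log2 fold change 9.70), and at 48.0 ± 7.61 CPM in Mpez1-2 double mutants and 0.305 ± 0.0600 CPM in their controls (7.29). MpCYP829J1, with 0 counts in its set 1 controls, was at least 104-fold higher in set 1. MpCYP829-like29, with 0 counts in its set 2 controls, was at least 26.7-fold higher in set 2. MpCYP829-like10, among the 4 largest called changes of the family in set 1, rose by 5.38 in set 2. MpCYP829-like15, among the 4 largest in set 2, rose by 4.44 in set 1.

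Calls of fallen CYP829 genes, named after their values were seen, were not firm. MpCYP829A1 (-0.51), MpCYP829B1 (-0.58), MpCYP829D1 (-1.22) and MpCYP829F4 (-0.45) fell in set 1. All 4 calls were lost without set 1 control replicate 2 or Mpez1-1 replicate 2 (-1.11 to -0.35), and those of all but MpCYP829B1 without control replicate 3 as well (-1.21 to -0.39). The MpCYP829A1 call was also lost without Mpez1-1 replicate 3 (-0.37), and that of MpCYP829F4 without control replicate 1 (-0.50) or Mpez1-1 replicate 1 (-0.40) and with DESeq2 (-0.43). MpCYP829B1 (-0.38) and MpCYP829-like28 (-0.34) fell in set 2. The first was lost without set 2 control replicate 2 or 3 or Mpez1-2 replicate 1 (-0.34 to -0.31), and the second without control replicate 1 or 2 or any single Mpez1-2 library (-0.39 to -0.26) and with DESeq2 (-0.34).

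Of 74 P450 genes outside these 2 families, 56 were tested in each set. In set 1, 22 rose and 9 fell, with a median of 0.32, and in set 2, 20 rose and 11 fell, with a median of 0.01. The risen shares were 39.3% and 35.7%, against 26.5% and 20.4% of all genes tested. Lower calls made up 24.1% and 17.4% of all genes tested, beside 9 and 11 of the 56 here. MpCYP813-like1 was at 11.1 ± 2.83 CPM in Mpez1-1 double mutants against 1 count in their controls, and at 11.0 ± 1.64 CPM in Mpez1-2 double mutants and 0.243 ± 0.137 CPM in their controls. MpCYP822-like6 changed by 3.28 and 2.93, and MpCYP75-like, named for the flavonoid hydroxylases, by 2.59 and 2.84. MpCYP822A1 changed by 3.04 and 1.47, and MpCYP822-like5 by 2.02 and 2.69, all called as higher.

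**Figure D3:**
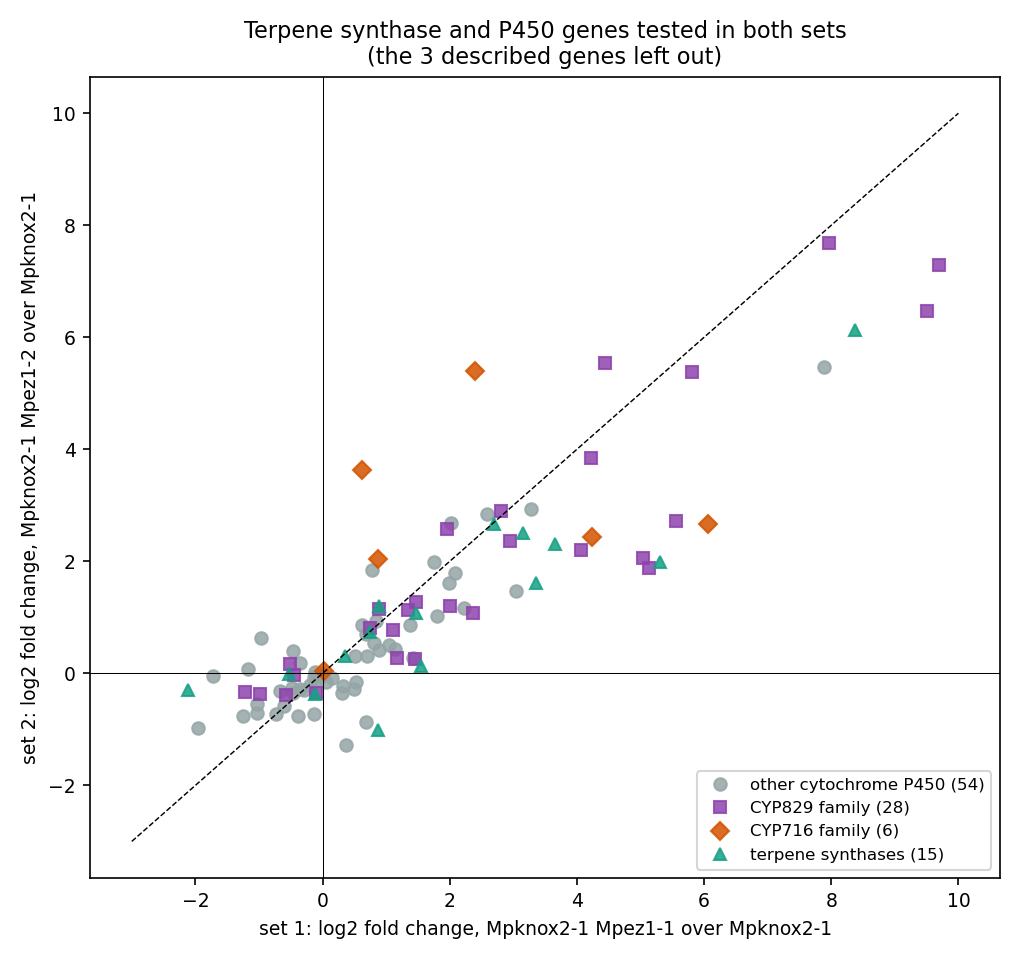
Log2 fold change over Mpknox2-1 of Mpknox2-1 Mpez1-1 (set 1, horizontal) and Mpknox2-1 Mpez1-2 (set 2, vertical) for 15 terpene synthase, 6 CYP716, 28 CYP829 and 54 other P450 genes tested in both sets, MpTPS6, MpCYP716-like24 and MpCYP829-like16 left out; each point is a gene and the dashed line marks equal change. Most CYP829 and terpene synthase genes lie to the upper right, and many of the higher ones lie under the line, among them MpCYP829-like43 at 9.70 and 7.29.

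A list by symbol held 26 genes of terpene precursors and the triterpene backbone. It included MpCPT genes, MpSQE and MpCAS1, but no gene named for a synthase of geranyl, farnesyl or geranylgeranyl diphosphate. In each set 23 were tested, with 8 risen and 1 fallen in set 1 and 4 risen and 7 fallen in set 2. The risen shares, 34.8% and 17.4%, lay near the 26.5% and 20.4% of all genes tested. The fallen share lay below the 24.1% of all genes in set 1 and above the 17.4% in set 2. The medians were 0.02 and -0.12. MpDXS1, named for the first enzyme of the plastid isoprenoid pathway, fell in both sets, by -0.86 in set 1 and by -0.48 in set 2. MpDXR2, for the next enzyme, rose by 1.54 and 0.87. The prenyltransferase genes MpCPT6 (2.47 and 2.06) and MpCPT5 (1.81 and 1.46) rose in both sets, and the MpCPT6 call of set 2 was lost without control replicate 2 or Mpez1-2 replicate 2 or 3 (1.99 to 2.08). MpDXS2 rose by 0.83 in set 1, a call lost without control replicate 2 (0.74) or Mpez1-1 replicate 1 (0.66), and by 0.69 in set 2. MpCPR1, for the reductase that passes electrons to P450 enzymes, was at 9.13 ± 0.598 CPM in Mpez1-1 double mutants and 9.28 ± 0.349 CPM in their controls, and at 11.97 ± 1.66 CPM in Mpez1-2 double mutants and 12.5 ± 1.66 CPM in their controls. Its log2 fold changes of -0.02 and -0.01 did not pass the test.

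Markers of oil body cells moved in the same direction as the terpene synthase genes. Of 5 markers, 5 rose in set 1 and 4 in set 2, against 26.5% and 20.4% of all genes tested. Both counts include MpERF13, whose calls were not firm. No marker was at 0 in any group. The summed level of the 5 was 301 to 306 CPM in Mpez1-1 double mutants and 165 to 172 CPM in their controls. In set 2 it was 109 to 114 CPM in Mpez1-2 double mutants and 78.1 to 87.7 CPM in their controls. MpC1HDZ, a transcription factor of oil body cell formation, changed by 0.80 in set 1 and 0.58 in set 2, and MpABCG1 by 1.06 and 0.44. MpSYP12B, a membrane fusion protein of oil bodies, changed by 1.43 and 0.59, and MpERF13, a transcription factor, by 0.70 and 0.52. MpR2R3-MYB2 rose in set 1 (1.22) and was at 0.15 in set 2, where it did not pass the test. The set 2 calls of MpSYP12B (0.41) and MpABCG1 (0.30) were lost without Mpez1-2 replicate 3, and the MpERF13 calls without any of 5 single libraries in each set (0.54 to 0.81 in set 1, 0.39 to 0.56 in set 2). Those libraries were all but Mpez1-1 replicate 1 in set 1 and all but Mpez1-2 replicate 2 in set 2. The MpERF13 calls were also lost with DESeq2 (0.72 in set 1, 0.53 in set 2) and with no filter (0.66 and 0.50), and that of set 2 with the replicate block (0.52) and in the fit of all 12 libraries (0.48). The part of oil body cells in the levels of MpTPS6 and the other terpene genes was not tested. In RNA of whole thalli, more cells of a type and more RNA per cell cannot be told apart.

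**Figure D4:**
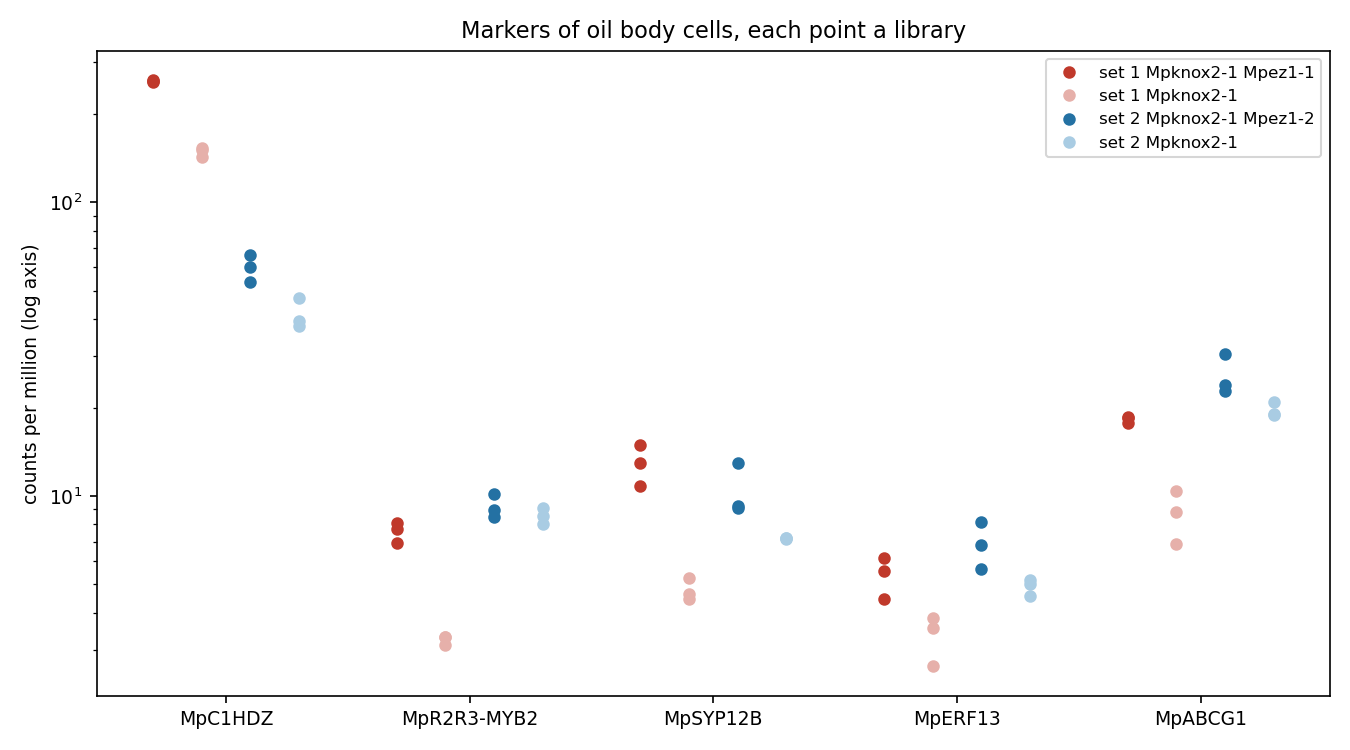
Level in CPM (log axis) of 5 markers of oil body cells in every library, with 4 groups per gene in the order Mpknox2-1 Mpez1-1 and Mpknox2-1 of set 1, then Mpknox2-1 Mpez1-2 and Mpknox2-1 of set 2. All 5 lie higher in set 1 double mutants than in set 1 controls, and MpR2R3-MYB2 overlaps between the groups of set 2.

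Markers of other cell types had mixed changes. The thallus gene MpRBCS, of the carbon-fixing enzyme, was at 212 to 505 CPM in Mpez1-1 double mutants and 224 to 247 CPM in their controls, and rose in set 2, with 477 to 576 CPM in Mpez1-2 double mutants and 253 to 295 CPM in their controls. Of 6 gametangium and germ cell markers, 3 rose and 1 fell of 5 tested in set 1, and 1 rose and 1 fell of 4 tested in set 2. The gene that fell was MpRKD, and its set 1 call was lost without control replicate 2 (-0.45) or Mpez1-1 replicate 2 (-0.41), which leaves 0 fallen. Over all genes tested, 26.5% were called higher and 24.1% lower in set 1, and 20.4% and 17.4% in set 2. The sum of the 6 germ cell markers was 60.0 to 77.0 CPM in Mpez1-1 double mutants and 73.0 to 75.3 CPM in their controls. In set 2 it was 94.99 to 109 CPM in Mpez1-2 double mutants and 119 to 121 CPM in their controls. MpBHLH20 (MpBNB), which specifies germ cells, was at 0 in all controls, and MpPRM, for sperm chromatin, was at 0 in every group but the Mpez1-2 double mutants. Of 6 genes listed as sporophyte markers, MpKNOX1 and MpBELL1 to MpBELL5, 2 of 3 tested rose in each set. MpBELL2 was at 0 in every group. Whether these genes mark sporophytes was not tested. The set 2 call of MpBELL4 was lost without control replicate 2 or 3 or Mpez1-2 replicate 1 or 3 (1.26 to 1.63), which leaves 1 risen. Their sum was 10.7 to 12.7 CPM in Mpez1-1 double mutants and 3.22 to 3.75 CPM in their controls, and 9.11 to 14.2 CPM in Mpez1-2 double mutants and 1.68 to 2.86 CPM in their controls. The rhizoid marker MpBHLH14 (MpRSL1) did not pass the test in either set, at 4.48 to 6.50 CPM in Mpez1-1 double mutants and 5.71 to 7.41 CPM in their controls, and 11.6 to 13.7 CPM in Mpez1-2 double mutants and 13.4 to 14.9 CPM in their controls. Of 2 gemma markers, MpGCAM1 rose in set 1 (1.15), a call lost in the fit of all 12 libraries (edgeR adjusted p = 0.0662), and MpKAR fell in set 2. Their sum was 32.3 to 48.0 CPM in Mpez1-1 double mutants and 44.2 to 56.3 CPM in their controls, and 29.97 to 36.1 CPM in Mpez1-2 double mutants and 41.5 to 48.3 CPM in their controls. The part of any of these cells in the levels of the 3 genes was not tested.

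Genes with the most similar pattern over the 12 libraries were sought for each of the 3 by Pearson's r of log2 CPM among 12765 genes. The libraries fall into double mutants and controls, so such an r largely repeats the group difference and is a description only. For MpTPS6 they were MpPKS/CHS4 (r = 0.997), of the polyketide and chalcone synthase family, Mp3g15250 (0.995) and Mp5g14460 (0.995). MpPKS/CHS4 had 51, 67 and 20 counts in the Mpez1-1 double mutants against 0, 1 and 0 in their controls, and 116, 140 and 134 in the Mpez1-2 double mutants against 0 in each control. Among its double mutant libraries the lowest was Mpez1-1 replicate 3, as for MpTPS6. For MpCYP716-like24 they were Mp2g14810 (0.999), Mp7g19000 (0.999) and MpPYL2 (0.998), of the abscisic acid receptor family. For MpCYP829-like16 they were Mp3g22170 (0.990), MpCE13.2 (0.984), named for a family of carbohydrate esterases, and Mp1g10640 (0.980). Mp1g10640 had the same order of groups as MpCYP829-like16, with 227 ± 24.8 CPM in Mpez1-1 double mutants and 6.38 ± 1.06 CPM in their controls, and 103 ± 12.1 CPM in Mpez1-2 double mutants and 22.3 ± 7.54 CPM in their controls. By Spearman's rank correlation the first 3 shared 0 genes with these for MpTPS6 and MpCYP716-like24 and 1 for MpCYP829-like16.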

How the data were processed

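Libraries of polyadenylated RNA were made with a directional kit, per the labels' protocols. The submitters' processing notes name Trim Galore and STAR. The deposited tables hold raw counts per gene and TE copy, 2 tables for each of 12 libraries. How reads were counted (tool, strand setting, multiply placed reads), and on which build, is not given in the sources used here. Column headers of set 2 carry the labels Tak2 and G4, which those of set 1 lack and whose meaning is not given.

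The test was edgeR's quasi-likelihood F test (version 4.0.16, R 4.3.3, robust fit) on genes passing filterByExpr (minimum count 10, minimum total 15), with TMM scaling over genes and TE copies and Benjamini-Hochberg adjustment over all genes tested, at a threshold of 0.05. Each double mutant was fitted with its own controls, the double mutants with each other in 6 libraries, and the difference between sets in all 12. The procedure was tested on simulated data. CPM used TMM-scaled library sizes. The SE is the absolute log2 fold change divided by the square root of F. "Rose" and "fell" mean an adjusted p under the threshold. Ratios against 1 to 3 control counts have exact 95% counting intervals.

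The members and lists were chosen with earlier results of these data known. Named were the 3 genes, 5 identifiers on each side, up to 4 called genes per list and set with the largest change, 3 most similar genes and all markers; those added after their values were seen are said to be. Symbols came from a RefSeq gene table matched by identifier number (17624 of 19441 matched, 3088 with a symbol). No coordinates or sequences are given, and promoter motifs were not searched. Alternatives were DESeq2 1.42.0, RLE and gene-only TMM scaling, no filter, a replicate block, a fit of all libraries and leaving out each library. The p-values measure the spread between libraries of one set.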

Additional observations from a re-analysis of the deposited data

Results flagged for a closer look

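The change over Mpknox2-1 differed between the sets, by the interaction term of the edgeR fit of all 12 libraries, for 20 of the named genes; values are the set 2 change minus the set 1 change on the log2 scale. The test called 10.7% of 13244 genes with a higher and 12.3% with a lower change in set 2. The 3 genes described were not tested in this way, since their changes had chosen them.

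Among terpene synthase genes, MpFTPSL3 differed by -3.35 (SE 0.44, edgeR adjusted p = 0.000538), MpFTPSL1 by -1.92, MpMTPSL19 by -1.39, MpTPS5 by 1.78 and MpMTPSL1 by 0.47. MpFTPSL1 changed in opposite directions, by 0.87 in set 1 and -1.01 in set 2. The first 4 kept their call in all 17 alternatives, and that of MpMTPSL1 was lost in 8.

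Among P450 genes, MpCYP716-like21 differed by -3.45 (SE 0.77, edgeR adjusted p = 0.00620), MpCYP716-like23 by 2.96, MpCYP716Z1, near MpCYP716-like24, by -1.84, and MpCYP822A1 by -1.62, each in all 17 alternatives. MpCYP829-like43 differed by -2.47 (call lost in 4 alternatives), MpCYP829A1 by 0.62 (lost in 2) and MpCYP822-like5 by 0.62 (lost in 9). Within the CYP716 family the difference thus had both signs.

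Among neighbours, Mp3g13160 beside MpTPS6 differed by -0.68, and near MpCYP829-like16 Mp2g20600 differed by 2.15 and Mp2g20610 by 3.37, each in all 17 alternatives. Among cell type markers, the oil body genes MpR2R3-MYB2 (-1.12), MpSYP12B (-0.88) and MpABCG1 (-0.67) changed less in set 2. The calls of MpSYP12B and MpABCG1 were lost in 5 and 8 alternatives. MpGCS1, a gamete fusion gene, differed by -1.33, and MpBELL1, a homeodomain gene, by 1.69 (lost in 11).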

How the results depend on the processing

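No result changed direction. Differences between the double mutants ranged, over 12 alternatives, from 0.66 to 1.30 for MpTPS6 (call lost in 2), from -0.66 to -0.38 for MpCYP716-like24 (lost in 3) and from -1.31 to -0.99 for MpCYP829-like16 (lost in 0). Depth limits MpTPS6 and MpCYP716-like24 in controls to under the floor of 3 counts. At plain library size MpTPS6 and MpCYP716-like24 stood at 8.52 and 13.0 CPM in Mpez1-2 double mutants, and MpCYP829-like16 at 88.3 CPM in Mpez1-1 double mutants and 4.14 CPM in their controls. With no filter, 15 other terpene synthase genes rose in set 2, against 9. Leaving out each library gave 8 to 12 fallen P450 genes in set 1 and 8 to 14 in set 2, against 13 in each, the lowest without set 1 control replicate 2 and without Mpez1-2 replicate 1. It gave 0 to 1 fallen terpene synthase genes in set 2, with 0 without control replicate 3 or Mpez1-2 replicate 2 or 3, and 1079 to 2332 genes with a higher change in set 2, against 1419, the highest without Mpez1-1 replicate 1. Of 106 named changes, 26 lost their call in at least 1 of 12 alternatives.

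Deviations of same-numbered libraries had small correlations of both signs (-0.0601 to 0.0942), so the numbers were not taken as pairs. Within set 2 all were positive (0.0447 to 0.0871). With the replicate block 3355 genes rose and 3089 fell in set 1, against 3350 and 3045. In set 2 it gave 2630 and 2305, against 2602 and 2213. Between double mutants it gave 3621 and 3728, against 3928 and 3901. In set 2 every library deviated most like its own number, a hint from the data and not the design.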
